A study of Drosophila melanogaster with 2 samples.

Results

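Intronic peaks close to a transcript start were examined in a chromatin immunoprecipitation and sequencing (ChIP-seq) experiment on tailup (tup), a transcription factor of the LIM-homeodomain family and the fly relative of vertebrate Islet proteins. The chromatin came from 1 group, whole Drosophila melanogaster embryos aged 0 to 24 hours with males and females pooled, in 2 biological replicates. Both replicates came from the strain Tup-GFP, which stably carries tup with GFP fused to its C-terminus, and an anti-GFP antibody was used. The promoter that drives the transgene is not given in the sources used here, and a whole embryo holds many cell types, so a peak cannot be assigned to a tissue. The authors deposited a candidate list of 30000 peaks for each replicate, another for both pooled, and an optimal list of 2241 peaks that passed their reproducibility procedure (IDR, irreproducible discovery rate). The near-start intronic peaks were chosen by 2 measured properties, membership of the optimal list and summit position. The summit had to lie in an intron, in no exon of any gene, and more than 500 bp and at most 2000 bp from the nearest annotated transcript start. This gave 304 of 2241 optimal peaks (13.6%). The others were 1237 promoter peaks (within 500 bp of a start), 399 deep intronic peaks (over 2000 bp from any start), 249 intergenic peaks and 52 exonic peaks.

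As background, LIM-homeodomain factors bind short AT-rich sites built around a TAAT core, often together with cofactors, and tup is known for roles in the amnioserosa, the heart, the notum and motor neurons. First introns of fly genes often hold enhancers and further promoters, so a ChIP-seq peak there can mark either kind of element or chromatin that is open in many cells. A ChIP-seq peak does not say which gene, if any, the factor controls.

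The sequences about the summits are shown first, since sequence did not enter the choice of peaks. Each line gives the gene whose intron holds the summit, then the bases within 50 bp of the summit (dm6, plus strand, from the RefSeq copy of that assembly). These 7 peaks were among the 11 strongest. Capitals mark any match to the homeodomain or Islet-type motifs TAATTA, then TAATTG, then TAATGG, then CTAATG, on either strand. The windows of NFAT and CG3726 held such a match. The windows of ush, CG11050, cno, CG32772 and Trl held none. Those of Lk6 and CG9663, also among the 11 strongest, are shown further below. Lk6 held CTAATG and CG9663 held no match.
ush, chr2L:481026-481126: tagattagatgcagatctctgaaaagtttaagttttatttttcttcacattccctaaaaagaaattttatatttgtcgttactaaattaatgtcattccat
CG11050, chr2L:6612665-6612765: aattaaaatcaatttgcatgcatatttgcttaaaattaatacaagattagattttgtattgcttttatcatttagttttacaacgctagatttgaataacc
cno, chr3R:5215479-5215579: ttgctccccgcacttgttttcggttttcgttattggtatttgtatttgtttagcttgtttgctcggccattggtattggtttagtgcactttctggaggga
CG32772, chrX:4910305-4910405: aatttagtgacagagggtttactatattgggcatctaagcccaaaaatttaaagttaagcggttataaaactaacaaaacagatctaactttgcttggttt
NFAT, chrX:13640444-13640544: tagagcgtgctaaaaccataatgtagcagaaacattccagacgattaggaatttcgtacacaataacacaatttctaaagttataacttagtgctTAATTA
Trl, chr3L:14759459-14759559: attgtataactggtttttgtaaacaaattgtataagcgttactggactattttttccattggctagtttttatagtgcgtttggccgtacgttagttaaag
CG3726, chrX:5918869-5918969: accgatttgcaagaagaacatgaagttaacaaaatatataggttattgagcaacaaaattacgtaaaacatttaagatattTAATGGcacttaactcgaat

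The next 6 windows are those of strong peaks that hold ACTGTA or ATGTAC, which were among the 6-base sequences that stood apart in the tests below. Capitals mark these 2 sequences on either strand. In the window of Btk both occur. Matches to the homeodomain and Islet-type motifs, here CTAATG in Lk6 and TAATTA in Btk, are left in lower case.
Lk6, chr3R:11760991-11761091: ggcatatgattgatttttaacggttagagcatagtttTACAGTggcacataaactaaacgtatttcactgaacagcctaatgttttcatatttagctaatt
CG9663, chr2L:3302134-3302234: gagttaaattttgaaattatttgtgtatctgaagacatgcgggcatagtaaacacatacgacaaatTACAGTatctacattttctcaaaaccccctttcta
Btk, chr2L:8292520-8292620: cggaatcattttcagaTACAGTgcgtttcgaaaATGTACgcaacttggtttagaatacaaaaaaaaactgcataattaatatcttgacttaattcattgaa
CG9837, chr3R:8811633-8811733: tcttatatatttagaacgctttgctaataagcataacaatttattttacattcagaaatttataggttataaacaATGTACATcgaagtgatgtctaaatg
chif and Hyls1, chr2L:16351235-16351335: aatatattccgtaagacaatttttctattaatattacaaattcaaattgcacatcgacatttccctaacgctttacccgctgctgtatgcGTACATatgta
InR, chr3R:21590793-21590893: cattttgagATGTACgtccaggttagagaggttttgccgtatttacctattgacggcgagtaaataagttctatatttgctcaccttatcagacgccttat

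The pooled signal value, the peak caller's own height of a peak, took part in the choice, so it is a description. Of the 3540 pooled candidates with a near-start intronic summit, 304 (8.59%, Wilson 95% interval 7.71 to 9.56) were in the optimal list. The background over all pooled candidates was 7.47%, and the share was 5.03% for deep intronic, 17.2% for promoter and 4.38% for intergenic candidates. The signal of the 304 peaks ranged from 68.7 to 1283 with a median of 107 (quartiles 80.5 and 151). The medians of the other classes were 92.7 for deep intronic, 109 for promoter and 96.1 for intergenic peaks. Near-start intronic peaks thus had a distribution of signal close to that of promoter peaks.

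**Figure D1:**
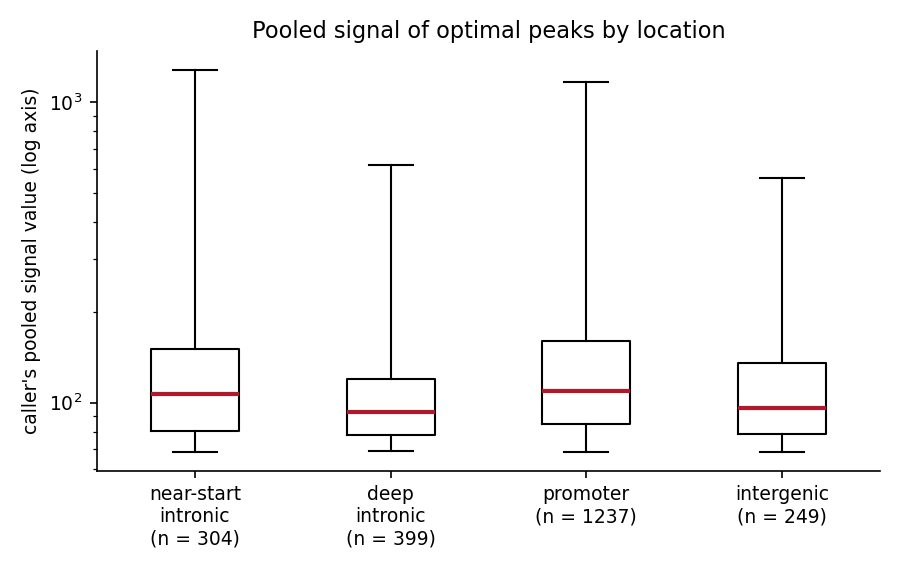
The pooled signal value of the optimal peaks (vertical, log axis) is drawn for the 4 location classes. Boxes span the quartiles, red lines are medians and whiskers reach the lowest and highest peak. The box of the 304 near-start intronic peaks (80.5 to 151) lies nearly level with that of the 1237 promoter peaks.

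The strongest of these peaks, which was also the strongest of the whole optimal list, had a pooled signal of 1283. It lay in the first intron of ush, which encodes a FOG-family cofactor of GATA factors, 1388 bp upstream of the start of cbt, a zinc finger transcription factor gene. It reached 760 in replicate 1 and 528 in replicate 2, rank 1 in both. A weaker peak (99.6 pooled, 67.4 in replicate 1 and 31.6 in replicate 2) lay 1336 bp upstream of an ush start in the same intron. The CG11050 peak (1019) had its summit in the second intron of that gene. That intron is only 140 bp long and the peak interval 349 bp, so the interval runs beyond the intron. The peak reached 575 in replicate 1 and 441 in replicate 2. The peak of Lk6, which encodes a kinase of the translation factor eIF4E, stood at 744 (405 in replicate 1 and 340 in replicate 2), 962 bp upstream of an Lk6 start. The strongest ush peak and those of CG11050 and Lk6 were among the 10 strongest of each replicate. The peak of cno, which encodes the afadin that links adherens junctions to actin, stood at 650 (333 in replicate 1 and 317 in replicate 2). CG32772 followed with 649.9 (393 in replicate 1 and 262 in replicate 2), and CG9663 with 574 (303 in replicate 1 and 275 in replicate 2). Each of these was higher in replicate 1 on the caller's scale. That scale differs between the lists, with a median candidate signal of 20.8 in replicate 1 and 11.0 in replicate 2.

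The next strongest peaks lay in genes of varied function. A peak in introns of HmgD and HmgZ, paired genes of high mobility group proteins, had a signal of 486, and a second summit of the same interval, 200 bp away, had 195. NFAT, a transcription factor gene, held a peak of 441 and another of 253, 691 bp apart. Trl, which encodes GAGA factor, held one of 423 in its second intron. Adf1, the gene of the transcription factor of that name, held one of 396. The peak of wde, which encodes a partner of the histone methyltransferase Eggless, had a signal of 330 and lay 514 bp downstream of the start. The others of the 20 strongest included CG3726 (393), CG31635 (358), CG9837 (348), Zw, the glucose-6-phosphate dehydrogenase gene (348), and chif (338), whose protein activates the replication kinase Cdc7. They also included LPCAT (335), the insulin receptor gene InR (326), the RNA-binding protein gene mub (312) and CG4496 (276). In Zw the nearest start was not its own but that of asRNA:CR44512, at 859 bp. All 20 were among the 2241 strongest peaks of both replicates, with replicate 1 ranks of at most 172 and replicate 2 ranks of at most 184.

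The replicates were compared by looking for a candidate summit within 100 bp. Replicate 1 had one at 302 of the 304 peaks, replicate 2 at 284 and both at 282 (92.8%). Among the 2241 strongest peaks of each replicate alone, replicate 1 held 247 (81.3%) and replicate 2 held 228. Of the 304 peaks, 182 (59.9%, Wilson interval 54.3 to 65.2) were among the strongest of both, 65 of replicate 1 only, 46 of replicate 2 only and 11 of neither. Support followed signal. Of the 76 peaks with a signal of 151 or more, 74 were among the strongest of both replicates. Of the 76 weakest, with a signal up to 80.3, 7 were. Across the 282 peaks found in both, log2 signal had a Pearson correlation of 0.63 and a Spearman correlation of 0.52. The points are peaks of the same 2 libraries and were chosen by pooled signal, so these are descriptions.

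**Figure D2:**
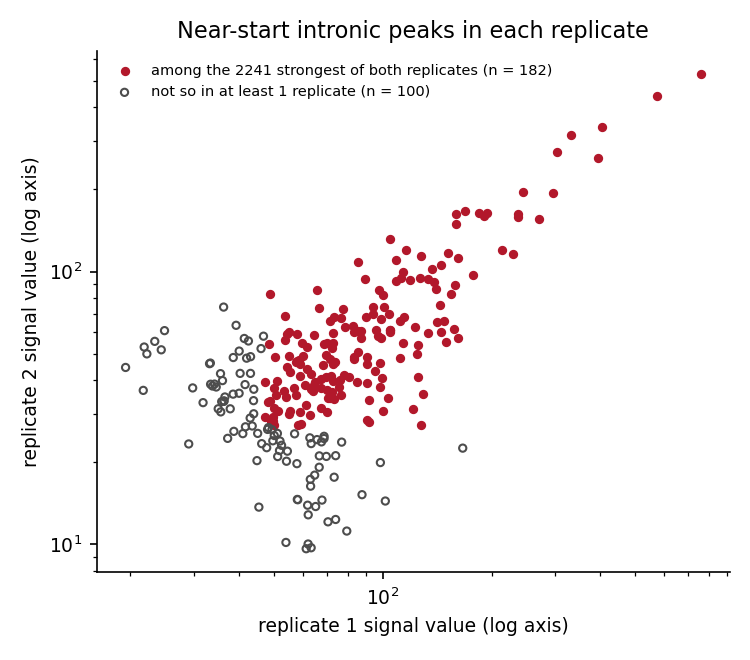
Each point is 1 of the 282 near-start intronic peaks with a candidate summit within 100 bp in both replicates, at its signal in replicate 1 (horizontal, log axis) and in replicate 2 (vertical, log axis). The 182 filled points were among the 2241 strongest of both replicates. The 100 open points sit at the low end of at least 1 axis.

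The distance limits were part of the choice. Just inside the lower limit lay peaks of Pen and hng3 (both 508 bp, signals 80.5 and 76.4) and sdt (509 bp, 73.4). Just outside lay those of CG10543 (498 bp, 127), CG31612 (497 bp, 236) and lncRNA:CR42736 (496 bp, 85.6). At the upper limit, Ptp61F (1971 bp, 75.2), CG9171 (1961 bp, 76.8) and pnt (1949 bp, 121) were inside. Shrm (2001 bp, 149), lncRNA:CR44320 (2026 bp, 249) and hiw (2027 bp, 133) were outside. The genes named here are those whose intron held the summit. The nearest start was another gene's for Ptp61F (FucTD), pnt (lncRNA:CR46090), lncRNA:CR44320 (CG12290) and hiw (be). The weakest peaks were those of jbug (68.69), Cad96Ca with CG13654 (68.79) and goe (68.80), and the strongest candidate of the same location below the list, in NFAT, had 68.60.

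Within the limits the peaks lay toward the start. The median distance was 1049.5 bp, against 1147 bp for 3185 non-passing candidates, which are pooled candidates of the same location without overlap with any peak of the optimal list. In the interval from 500 to 1000 bp lay 144 peaks (47.4%), against 1260 non-passing candidates (39.6%). From 1000 to 1500 bp there were 98 (32.2%) against 1050 (33.0%), and from 1500 to 2000 bp there were 62 (20.4%) against 875 (27.5%). Since distance defined the peaks, these are descriptions. Downstream of the nearest start lay 186 peaks, and 176 of them were downstream of a start of the gene whose intron held them. Of the 118 upstream peaks, 88 were upstream of an alternative start of that gene and 30 upstream of another gene's start. The median signal was 103 for downstream and 110.0 for upstream peaks.

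**Figure D3:**
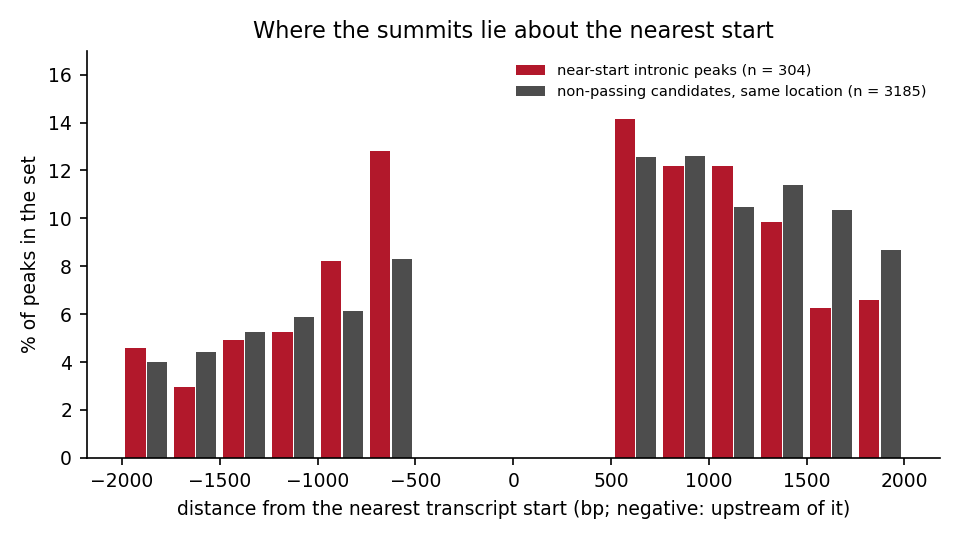
The share of peaks (vertical, %) is drawn by distance of the summit from the nearest transcript start in steps of 250 bp (horizontal, negative upstream), for 304 near-start intronic peaks (red, left) and 3185 non-passing candidates of the same location (grey, right). In both sets more summits lie downstream than upstream (186 against 118 for the near-start intronic peaks). The gap about 0 is the promoter zone, left out by the rule.

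Further location features of the 304 peaks and the non-passing candidates were compared with two-sided Fisher's exact tests. The p-values were adjusted by the Benjamini-Hochberg method over the 9 features. Another optimal peak nearby and an optimal peak at the nearest start were counted from the optimal list, which also divided the compared sets. Their p-values are therefore not independent of the choice of peaks. The other features were not used by the rule. Peaks are not replicates of a condition, so the p-values describe these lists only. A first intron of some transcript held 257 peaks (84.5%), against 2283 non-passing candidates (71.7%), an odds ratio of 2.16 (exact adjusted p = 2.31e-06). The nearest start belonged to the gene whose intron held the summit for 264 peaks (86.8%), against 2428 (76.2%), an odds ratio of 2.06 (exact adjusted p = 3.49e-05). The start was that of a protein-coding gene for 283 (93.1%), against 2779 (87.3%), an odds ratio of 1.97 (exact adjusted p = 0.00427). The remaining starts were those of 15 ncRNA, 4 tRNA and 2 snoRNA genes. An optimal peak within 500 bp of that same start was present for 43 peaks (14.1%), against 286 (8.98%), an odds ratio of 1.67 (exact adjusted p = 0.00793). Most near-start intronic peaks therefore had no optimal peak at the start itself. The deep intronic peaks had an optimal peak at their nearest start at a like share, 14.3%.

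Another optimal peak lay within 2000 bp of 84 near-start intronic peaks (27.6%), against 469 non-passing candidates (14.7%), an odds ratio of 2.21 (exact adjusted p = 3.53e-07). Candidates that overlap an optimal peak are left out of the non-passing set, and with them kept the odds ratio was 1.99 (exact adjusted p = 6.18e-06). Some of the nearby peaks were very close summits, as in HmgD and HmgZ (200 bp) and JIL-1 (202 bp). On the X chromosome lay 71 peaks (23.4%), against 475 non-passing candidates (14.9%), an odds ratio of 1.74 (exact adjusted p = 0.000572). Deep intronic peaks were on X at 22.6%. The embryos pooled both sexes. The other 3 features did not pass. A position downstream of the start was found for 61.2%, against 66.1% (exact adjusted p = 0.114). Introns of more than 1 gene held 9.87%, against 8.23% (exact adjusted p = 0.370), but with replicate 2 alone this feature passed (odds ratio 1.61, adjusted p = 0.0240). The longest host intron exceeded 10 kb for 43.8%, against 41.1% (exact adjusted p = 0.394). All 6 features that passed also did so with either replicate alone (exact tests of the same kind).

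**Figure D4:**
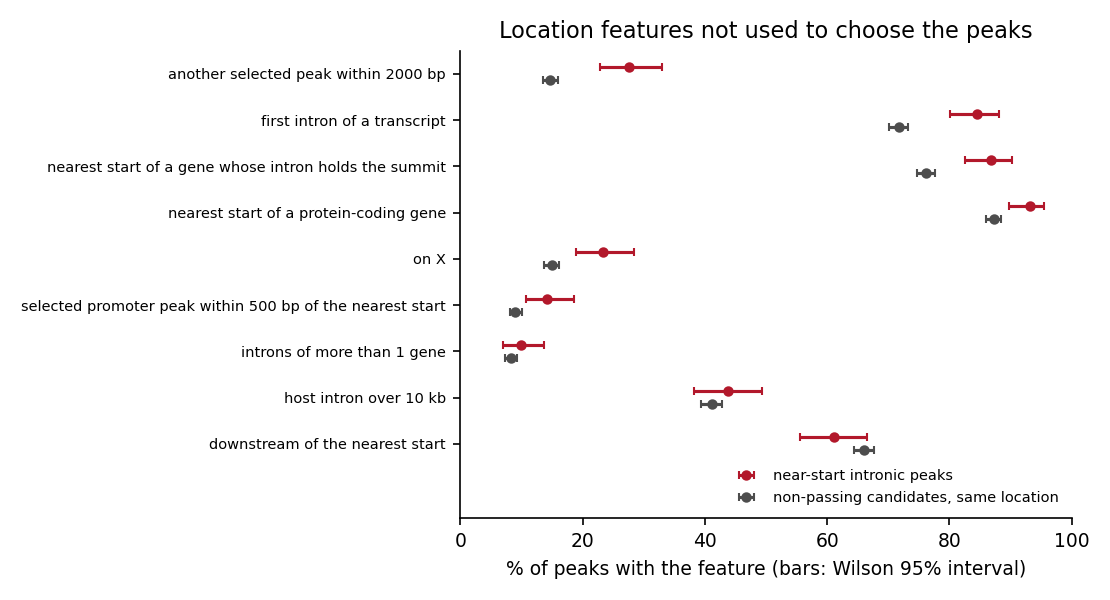
The share of peaks with each of 9 location features (horizontal, %) is drawn for the 304 near-start intronic peaks (red, upper) and the 3185 non-passing candidates (grey, lower), with Wilson 95% intervals, ordered by odds ratio. The upper 6 features passed the test, from another optimal peak nearby (27.6% against 14.7%) to an optimal peak at the nearest start (14.1% against 8.98%).

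Summit windows were poor in G and C. The median GC content of these windows was 33.7% in the near-start intronic peaks, against 40.6% in non-passing candidates, 33.7% in deep intronic peaks and 33.7% in promoter peaks. The median over all pooled candidates was 42.6%, and 85.5% of the near-start intronic peaks lay below it, against 57.8% of the non-passing candidates, an odds ratio of 4.31 (Fisher's exact test, adjusted p = 4.86e-23 over 3 comparisons). The share was 80.2% in deep intronic peaks (exact adjusted p = 0.0716) and 77.2% in promoter peaks (odds ratio 1.74, adjusted p = 0.00191). With the strongest peaks of replicate 1 alone, the difference from promoter peaks did not pass (odds ratio 1.11, exact adjusted p = 0.782). In windows of 100 bp each side it did not pass either (odds ratio 1.35, exact adjusted p = 0.0993).

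No motif of the Islet or homeodomain type passed the test in any of the 3 comparisons, with deep intronic peaks, promoter peaks and non-passing candidates. At least 1 of the 4 occurred in 82 of the 304 windows (27.0%), against 26.8% of the windows of non-passing candidates, 26.6% of deep intronic and 24.0% of promoter peaks. TAATTA was in 8.22%, against 9.23% of non-passing candidates, and TAATTG in 13.2%, against 11.3%. TAATGG was in 6.58%, against 6.72%, and CTAATG in 4.61%, against 4.68%. Among all 30 motifs searched on either strand, 0 passed against non-passing candidates and 0 against deep intronic peaks (Fisher's exact tests, with 1 motif in each at an unadjusted p under 0.05). Both times that was the E-box CATATG, the letters at which basic helix-loop-helix factors can bind, in 7.89% of the near-start intronic peaks, against 4.52% of non-passing candidates (exact adjusted p = 0.479) and 3.26% of deep intronic peaks (adjusted p = 0.290).

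Against promoter peaks 3 motifs passed. CATATG was in 7.89% of the near-start intronic peaks, against 3.15% of promoter peaks, an odds ratio of 2.63 (exact adjusted p = 0.0160). CGATA, the letters bound by the boundary factor BEAF, was in 11.2%, against 18.3%, an odds ratio of 0.563 (exact adjusted p = 0.0271). TATCGATA, the DNA replication-related element (DRE) known from core promoters, which contains CGATA, was in 0 of 304 windows, which allows a share of up to 0.987%, against 2.59% of promoter peaks (exact adjusted p = 0.0184). With the strongest peaks of replicate 1 alone, none of the 30 passed against promoter peaks. Fisher's exact test then gave adjusted p = 0.135 for CATATG, 0.129 for TATCGATA and 0.0700 for CGATA. With replicate 2 alone, CGATA did not pass (exact adjusted p = 0.252).

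All 2080 sequences of 6 bases, both strands merged, were then counted in the same windows. Against non-passing candidates 26 were more common in the near-start intronic peaks (1.25% of those tested) and 15 less common (0.721%). At an unadjusted p under 0.05 there were 165 in each direction. Of the 26, 7 held no G or C and 12 held 1. Of the 15, 3 held 4 and 8 held 5. ATTTTA was in 31.6% of the near-start intronic peaks, against 17.3% of the non-passing candidates (odds ratio 2.21, exact adjusted p = 1.56e-05). In 5 bins of GC content (Cochran-Mantel-Haenszel test), 1 of the 26 stayed past the threshold and none of the 15 did. ATTTTA then had an odds ratio of 1.38 (Cochran-Mantel-Haenszel test, n = 304 and n = 3185 windows, adjusted p = 0.783). CCGCAG was in 0 of 304 windows, which allows a share of up to 0.987%, against 140 of 3185 non-passing candidates (exact adjusted p = 0.00176).

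**Figure D5:**
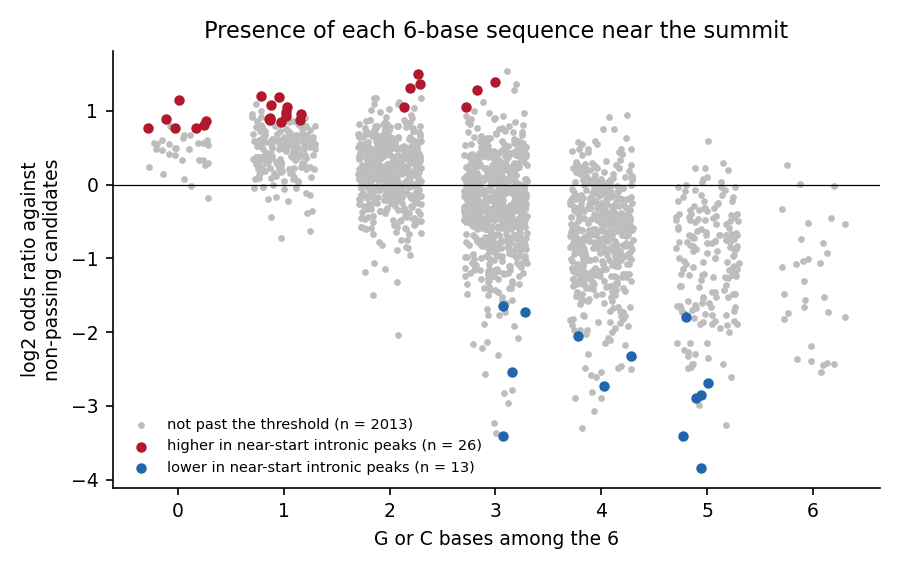
Each point is 1 of 2052 sequences of 6 bases, at its number of G or C bases (horizontal, spread sideways) and the log2 odds ratio of being present in near-start intronic peaks against non-passing candidates (vertical). The other 28, of which 2 were lower past the threshold, had an odds ratio of 0 or not finite and are not drawn. The median odds ratio falls with G or C bases, from 1.46 at 0 to 0.343 at 6.

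The sequence that stayed was ACTGTA. It was in 37 near-start intronic peaks (12.2%), against 149 non-passing candidates (4.68%), an odds ratio of 2.82 (Fisher's exact test, adjusted p = 0.00136). It was in 4.76% of deep intronic peaks (exact adjusted p = 0.227) and 5.82% of promoter peaks (adjusted p = 0.0598). ATGTAC, which shares the letters TGTA with it, was in 34 near-start intronic peaks (11.2%), against 154 non-passing candidates (4.84%), an odds ratio of 2.48 (exact adjusted p = 0.00575). Within GC bins its odds ratio was 2.07 (Cochran-Mantel-Haenszel test, n = 304 and n = 3185 windows, adjusted p = 0.151). It was in 4.28% of promoter peaks (odds ratio 2.81, exact adjusted p = 0.0201) and 3.26% of deep intronic peaks (odds ratio 3.74, adjusted p = 0.0999). With replicate 1 alone neither passed against non-passing candidates (ACTGTA odds ratio 2.08, exact adjusted p = 0.0884, and ATGTAC odds ratio 1.52, adjusted p = 0.507). With replicate 2 alone both did. Against promoter peaks, replicate 1 alone gave ATGTAC an odds ratio of 1.82 and ACTGTA one of 1.66 (exact adjusted p = 0.721 for each). Replicate 2 alone gave ATGTAC one of 2.73 (exact adjusted p = 0.0204) and ACTGTA one of 2.42 (exact adjusted p = 0.0254). Against deep intronic peaks the odds ratio of ATGTAC was 1.45 with replicate 1 alone and 1.89 with replicate 2 alone. In windows of 25 bp each side neither passed against non-passing candidates (ACTGTA exact adjusted p = 0.355, ATGTAC 0.443). At 100 bp ATGTAC did not pass (exact adjusted p = 0.0776) and ACTGTA did (odds ratio 2.60). One or the other was in 64 of the 304 windows and both in 7. ACTGTA was in 22 of the 152 stronger peaks and 15 of the 152 weaker ones. ATGTAC was in 18 of the 152 stronger and 16 of the 152 weaker peaks.

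Against promoter peaks 4 of the 2080 sequences were more common (0.192%) and 2 less common (0.0962%), with 85 and 68 at an unadjusted p under 0.05. The 4 were ATGTAC and AAGATC and AGAATG and AGATCA. The sequence CGATAG, which contains the BEAF letters, was in 1.32% of the near-start intronic peaks, against 7.84% of promoter peaks (odds ratio 0.157, exact adjusted p = 0.00781), and CAACAC in 3.29%, against 9.94% (adjusted p = 0.0360). Against deep intronic peaks 0 were more common (0.0%) and 0 less common (0.0%) by Fisher's exact test, with 58 and 53 at an unadjusted p under 0.05. The smallest adjusted p was 0.0999.

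The 304 peaks lay in introns of 298 genes. Of these genes, 269 held 1 such peak, 24 held 2 and 5 held 3 or more. CG1677 and the overlapping lncRNA:CR44357 shared 5 on X (signals 109 to 141), whose nearest starts were those of unc-119, Dok, CG42780 and CBP. CG9837 held 3 (348, 214 and 70.3), and for the weakest replicate 2 had no candidate within 100 bp. CHES-1-like, which encodes a fork head transcription factor, held 3 (178, 138 and 124). The first of these, nearest to a start of lncRNA:CR43287, reached 166 in replicate 1 but 22.5 in replicate 2. HmgZ held 3 (486, 195 and 104.6), of which the nearest start was that of HmgD for the weakest. Host introns were from 140 to 126467 bp long, with a median of 7846.5 bp.

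Genes of 20 lists, from signalling pathways and tissues to ion channels and ribosomal proteins, were counted without a test. Some lists cover the roles of tup named in the background (amnioserosa, heart, notum and motor neurons). Others, such as those of ribosomal proteins, ion channels and ecdysone response, were not chosen for a role named there. Over the annotation, 337 of 18277 genes (1.84%) held or were nearest to a near-start intronic peak, and 311 of 13968 protein-coding genes (2.23%). Any optimal peak was present at 2026 of all genes (11.1%) and at 1799 of the protein-coding genes (12.9%), counted the same way. Gene length, which bears on such counts, was not matched. Of 21 genes of the Dpp (BMP) pathway, 5 had one and 10 had any optimal peak. Mad, the Smad that carries the signal, had a peak of 168 (93.7 in replicate 1 and 70.1 in replicate 2), 681 bp upstream of a start. The gene shn, which encodes a zinc finger partner of the Smads, had 2 (128 and 106). The type II receptor gene wit had 2 (122 and 87.4), dlp, a glypican gene, had 1 (87.5), and put, another type II receptor gene, had 1 (79.8). The stronger wit peak was nearest to a start of CG32259. For put the replicates stood apart, at 61.9 in replicate 1 and 13.9 in replicate 2. The ligand gene dpp held none of these peaks.

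Of 21 genes of EGFR, Ras and MAP kinase signalling, 5 had a near-start intronic peak and 11 any optimal peak. S, needed for export of the ligand, had one of 188 (89.5 in replicate 1 and 94.2 in replicate 2). The peak of drk, the adaptor gene, had 147 and was nearest to a start of mars. The nuclear end of the pathway was represented by edl, a regulator of ETS factors (181, with 125 in replicate 1 and 53.8 in replicate 2), and by pnt, an ETS activator gene (121, with 91.7 in replicate 1 and 28.2 in replicate 2). In both, replicate 1 exceeded replicate 2 by more than the medians of the candidate lists differ. The pnt peak was nearest to a start of lncRNA:CR46090.

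Of 24 amnioserosa and dorsal closure genes, 4 had one and 10 any optimal peak. Besides ush and put they were jar, the myosin VI gene (193), and msn, a JNK pathway kinase gene (119). Of 16 adhesion and myoblast fusion genes, 4 had one and 6 any optimal peak. They were cno (650), the apical polarity genes crb (118) and sdt (73.4), and the fusion gene mbc, with summits of 84.6 and 80.3. Replicate 2 had no candidate within 100 bp for the stronger mbc summit, and replicate 1 ranked the weaker at 11195. Of 24 coregulator and Polycomb genes, 5 had one and 13 any optimal peak. The 5 included sbb (126), ph-p (117), kis (100.2) and CtBP (79.1). The nearest start was that of CG14505 for the sbb peak and that of lncRNA:CR44222 for the kis peak. None of the 9 LIM-homeodomain and cofactor genes, the 11 Hox and cofactor genes, the 20 segmentation genes or the 53 cytosolic ribosomal protein genes had one. Any optimal peak was present at 4 of those 9, 2 of those 11, 5 of those 20 and 19 of those 53.

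The remaining lists had 1 or 2 such genes each. Of 14 Notch core genes, 1 had a near-start intronic peak and 6 any optimal peak, and of 25 neuroblast and neurogenic genes 2 had one and 7 any. These were neur, the ubiquitin ligase gene of Notch ligand signalling, which is in both lists (176), and brat, a translational repressor gene of neuroblast lineages (180). Of 23 ion channel genes, 2 had one and 6 any, namely the potassium channel genes KCNQ (215, nearest to a start of mlt) and Irk1, with summits of 80.5 and 76.3. Of 30 axon guidance genes, 2 had one and 13 any, namely the Netrin gene NetB (121, nearest to a start of hog) and the teneurin gene Ten-a (86.6). Of 14 ecdysone response genes, 2 had one and 7 any. The 2 were br (93.6, nearest to a start of Mur2B) and EcR (89.4, nearest to a start of tRNA:Asn-GTT-1-1). The gene zfh1 (70.7) was the 1 of 20 heart and dorsal mesoderm genes and the 1 of 16 motor neuron factor genes, and 7 and 4 genes of these lists had any optimal peak. For zfh1, replicate 2 had no candidate within 100 bp. Wnt5 (75.6, in an intron of Ggt-1) was the 1 of 26 Hedgehog and Wingless genes, of which 9 had any. The 1 of 15 JNK pathway genes was msn, with 3 having any. The 1 of 21 notum and wing patterning genes and of 6 GATA and cofactor genes was ush, with 4 and 1 having any.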

How the data were processed

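Peak lists of 1 group (2 replicates) were used, in dm6, as the authors deposited them: a candidate list per replicate, the pooled list and the optimal list. The signal value of each peak is the authors' deposited height from the peak caller, and the other value used was the summit position. Per the file lists deposited with the samples, candidates were called against a control alignment. The aligner is not given in the sources used here, nor is the peak caller, any version or the IDR threshold. Depth is unknown. The deposited lists in dm3 were not used. Fragments were sheared to 200 to 800 bp, per the labels. Sequence was read from the RefSeq copy of the dm6 assembly, and genes from Ensembl release 115 (BDGP 6.54) without transposable elements.

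Summits were classified by location, and motifs (30) and 6-base sequences (2080) were counted on either strand within 50 bp. Shares were compared by two-sided Fisher's exact tests (SciPy 1.17.1, statsmodels 0.14.6, Python 3.11.15) with Benjamini-Hochberg adjustment and a threshold of 0.05. The share test was also run on simulated tables in which each 6-base sequence was drawn independently. No difference in GC content was built into them, so they do not cover the GC difference between the real sets. Wilson intervals (95%) and limits for a count of 0 (3 counts) cover counting error only. The members, gene lists (17 listed names matched no gene) and tests were chosen with earlier results of these data known. Genes were named by rule: the 20 strongest peaks, genes with 3 or more, up to 4 members per list, and peaks at the limits. Beyond it, dpp and the second NFAT and ush peaks were chosen after their values were seen. The 6-base tests against deep intronic and promoter peaks, the GC content tests, the GC bins for 6-base sequences and the set with overlapping candidates kept were added after seeing the data. The sequence of 1 strong peak is not reported here.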

Additional observations from a re-analysis of the deposited data

How the results depend on the processing

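With each replicate's 2241 strongest peaks alone, the number of near-start intronic peaks was 304 to 330. It was 161 above the median signal of the optimal list and 160 between 1000 and 2000 bp, and the other 5 definitions gave 242 to 397. The 6 location features that passed kept their direction and side of the threshold under every alternative run, except that with starts of protein-coding genes only, that feature is fixed and was not run. Motifs past the threshold against promoter peaks numbered 0 in windows of 25 bp each side, 7 at 100 bp, 1 within GC bins, 1 above the median signal, 1 from 500 to 1500 bp, 0 from 1000 to 2000 bp and 0 to 3 with a replicate left out. Against non-passing candidates they numbered 2 at 100 bp and 0 to 1 with a replicate left out. Of the 6-base sequences, 6 were higher and 0 lower at 25 bp, 48 and 31 at 100 bp, 1 and 0 within GC bins, and 9 to 39 and 1 to 14 with a replicate left out. Of the 26, 6 were shared at 25 bp and 21 at 100 bp. Without replicate 2, 8 were shared, and without replicate 1, 16.

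Odds ratios that did not pass lay on the other side of 1 for TAATGG within GC bins (1.06), from 1000 to 2000 bp (1.003) and with a replicate left out (0.696 to 1.10). The same held for CTAATG within GC bins (1.02) and from 500 to 3000 bp (1.11), for TAATTA above the median signal (1.01), from 500 to 3000 bp (1.03) and with a replicate left out (0.802 to 1.01), and for host introns over 10 kb from 1000 to 2000 bp (0.914). With summits within 50 bp, 89.5% of the peaks had a candidate in replicate 1 and 78.6% in replicate 2, and 73.7% and 63.8% were among the strongest. With any overlap, all 304 had a candidate in each. The cause of these shifts was not tested. No paired analysis was possible because there was 1 group.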
